A study of Mus musculus with 12 samples.

Results

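The genes described here are the atlastins ATL1, ATL2 and ATL3 and 6 genes of hereditary spastic paraplegia, SPAST, REEP1, REEP2, RTN2, SPG11 and ZFYVE26. They were taken by symbol from the table of all genes tested. The table lists all 9 among 13645 genes above the lesion and 8 among 12337 genes below it, where ATL2 has no entry. RNA came from spinal cord of male mice carrying human ApoE4, which received a contusion at the level of vertebra T9 at 4 months of age. Cord on either side of the lesion was taken 14 days later. Every group carried ApoE4 and the injury. The groups differed in synj1, the gene of the lipid phosphatase synaptojanin 1: mice labelled synj1+/+ had both alleles intact, and mice labelled synj1+/- had 1 inactive allele. Each of the 4 groups, made of a genotype and a site, held 3 libraries, and the 12 libraries were pooled by group into the deposited values. Neither ApoE3 nor uninjured tissue was analysed here.

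Hereditary spastic paraplegias are inherited disorders in which the longest motor axons of the spinal cord degenerate from their far ends, causing stiffness and weakness of the legs. Many of their genes act on the tubular endoplasmic reticulum (ER) of the axon. Atlastins are GTPases of the ER membrane that fuse its tubules into a network, and ATL1 is the form most abundant in neurons. REEP1, REEP2 and RTN2 carry hairpins that bend the ER membrane into tubules. Spastin, made from SPAST, cuts microtubules and binds atlastin and REEP1. Spatacsin (SPG11) and spastizin (ZFYVE26) work together in the renewal of lysosomes, beside the adaptor complex AP-5.

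Values are given as FPKM, the fragment count scaled by transcript length and library size, after removal of the 1 that the deposited values contain. Where a pair of FPKM values stands without names, synj1+/+ comes first. A level is per length, so levels of different genes are set side by side. It also depends on the annotated transcripts and on exons shared with other genes. How exact a comparison between genes is was not tested. The ratio is the deposited value, FPKM plus 1, of cord labelled synj1+/- divided by that of cord labelled synj1+/+. The sites were normalized separately, so the comparison between genotypes was made within each site. With 1 pooled value per group, no spread between libraries, replicate check or test could be computed from these values, and the p-values deposited with them were not used. A gene was called past the threshold when its log2 ratio lay beyond 0.32 in either direction. This held for 11.6% of all genes above the lesion and 19.6% below it. SYNJ1 itself went against the labels: above the lesion, cord labelled synj1+/+ held 1904 FPKM and cord labelled synj1+/- 2403, and the values below the lesion were 1846 and 2592. The RT-qPCR of synj1 made by the study was not analysed here. Every direction given therefore holds for the samples as labelled.

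ATL1 was the only one of these genes past the threshold, and only below the lesion. There its FPKM was 29.9 in cord labelled synj1+/+ and 40.4 in cord labelled synj1+/-, a ratio of 1.34 and a log2 ratio of 0.42. Ratios at least that high were found in 3.69% of all genes below the lesion, and in 3.17% of the 4378 genes whose mean FPKM lay within 2-fold of that of ATL1. Below the lesion the log2 ratio of ATL1 was 0.44 without the added 1 and 0.41 centred on the median of all genes. Both were past the threshold. Set against the median of the neuron markers listed below the lesion, the log2 ratio of ATL1 was 0.25, under the threshold of 0.32. No other cell type was used in this way. On the neuron scale the share of all genes past the threshold was not computed. Above the lesion, ATL1 stood at 32.4 and 35.6 FPKM, a log2 ratio of 0.13 that lay at the 80.5th percentile of all genes. The group labelled synj1+/- was thus the higher one at both sites, and the gap was wider below.

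ATL2, which shapes the ER in most cell types, was the most abundant member above the lesion. It stood at 130.3 FPKM in cord labelled synj1+/+ and 153 in cord labelled synj1+/-. The ratio of 1.18 was the highest of the 9 genes above the lesion, at the 91.6th percentile of all genes there. ATL3, the atlastin that also takes part in turnover of ER tubules, ran the other way. Its FPKM was 39.2 and 34.9 above and 35.8 and 32.8 below the lesion, in the order synj1+/+ and synj1+/-. The ratios were 0.893 and 0.919, lower in cord labelled synj1+/- at both sites but inside the threshold. The members of the family therefore did not share a direction. Of the summed FPKM of the 3 atlastins above the lesion, ATL2 made up 64.6% in cord labelled synj1+/+ and 68.5% in cord labelled synj1+/-. ATL1 made up 16.0% and 15.9%, and ATL3 19.4% and 15.6%. Below the lesion, where only ATL1 and ATL3 were listed, ATL1 was 45.5% of their sum in cord labelled synj1+/+ and 55.2% in cord labelled synj1+/-, so the order of the pair was exchanged between the genotypes.

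**Figure D1:**
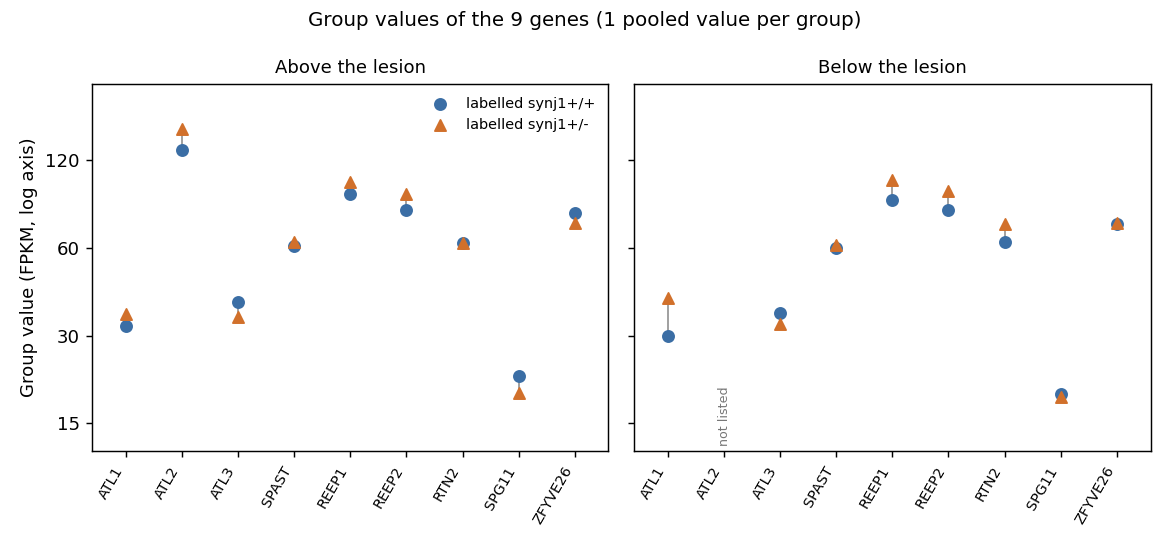
Group values of the 9 genes above (left) and below (right) the lesion, as FPKM on a log axis, with circles for cord labelled synj1+/+ and triangles for cord labelled synj1+/-. Each symbol is 1 pooled value of 3 libraries, so no error bar can be drawn. ATL1 below the lesion shows the widest gap, from 29.9 to 40.4, and ATL2 is not listed there.

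SPAST differed little between genotypes at either site. Its FPKM was 60.8 and 63.1 above the lesion and 59.9 and 61.4 below, in the order synj1+/+ and synj1+/-. The ratios of 1.04 and 1.03 lay at the 64.1st and 54.2nd percentile of all genes. Spastin thus stood near the middle of the table at the site where the atlastin it binds, ATL1, was past the threshold.

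The hairpin proteins were higher in cord labelled synj1+/- or equal to the control. REEP1, which links ER tubules to microtubules, had 92.1 and 101 FPKM above the lesion and, below it, 87.9 and 103. Its log2 ratios were 0.14 and 0.22. REEP2, its close relative, stood at 81.1 and 92.0 above the lesion and 81.1 and 93.8 below it, with ratios of 1.13 and 1.15. Both genes were thus higher by similar amounts at each site. RTN2, a reticulon, was alike in both genotypes above the lesion, at 62.4 and 62.5 FPKM, a ratio of 1.00. Below the lesion it stood at 62.8 and 72.6, a ratio of 1.15. None of these ratios passed the threshold, and the highest of them, REEP1 below the lesion, was at the 83.8th percentile of all genes. With the median of the neuron markers set to 0 below the lesion, the log2 ratios there became 0.05 for REEP1, 0.03 for REEP2 and 0.03 for RTN2. On that scale other members moved further from 0, to -0.14 for SPAST, -0.30 for ATL3, -0.21 for SPG11 and -0.17 for ZFYVE26.

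The lysosomal pair stood at or under the control. SPG11 had the lowest level of the 9 genes, with an FPKM of 21.8 in cord labelled synj1+/+ and 19.0 in cord labelled synj1+/- above the lesion. Its ratio of 0.879 was the lowest of the 9 genes there. Below the lesion it stood at 18.9 and 18.4, a ratio of 0.977. ZFYVE26 stood at 79.3 and 73.1 above the lesion, a ratio of 0.923, and at 72.3 and 72.9 below it, a ratio of 1.01. ZFYVE26 was the only gene of the 8 found at both sites whose ratio lay on different sides of 1. The genes of the AP-5 complex, with which both proteins work, had no member past the threshold at either site. Over all genes, the shares past it were 11.6% above and 19.6% below the lesion. The median log2 ratio of the AP-5 genes was 0.05 above the lesion, with 3 of 4 genes higher, and -0.07 below it, with 1 of 4 higher. Of all genes, 49% above the lesion and 52.8% below it had a ratio over 1.

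Over the 9 genes above the lesion, 6 were higher and 3 lower in cord labelled synj1+/-, and 0 were past the threshold, where 4.18% of all genes were past it as higher and 7.45% as lower. The median log2 ratio was 0.05, beside 0.00 over all genes. Of the 8 genes below the lesion, 6 were higher and 2 lower, and 1 was past the threshold, where 8.06% of all genes were past it as higher and 11.5% as lower. The median was 0.12, beside 0.01 over all genes. With limits of 1.2-fold and 1.5-fold in place of the threshold, 17.2% and 2.73% of all genes above the lesion and 27.6% and 5.54% below it were past them, and of the members only ATL1 below the lesion, at 1.2-fold. Beside the counts of higher members, 49% of all genes above the lesion and 52.8% below it had a ratio over 1, and the difference from the members was not tested. From above to below the lesion, the log2 ratio was larger for 7 of 8 members shared by the sites, and of all 12025 shared genes 53.9% had a larger one. The difference was 0.29 for ATL1, 0.20 for RTN2, 0.15 for SPG11, 0.13 for ZFYVE26, 0.09 for REEP1, 0.04 for ATL3 and 0.03 for REEP2. SPAST was the exception at -0.02. Differences from -0.48 to 0.43 span the 5th to the 95th percentile of all genes, and all 8 fall inside that range. No test of the difference was possible, and the same mice may have given both segments.

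**Figure D2:**
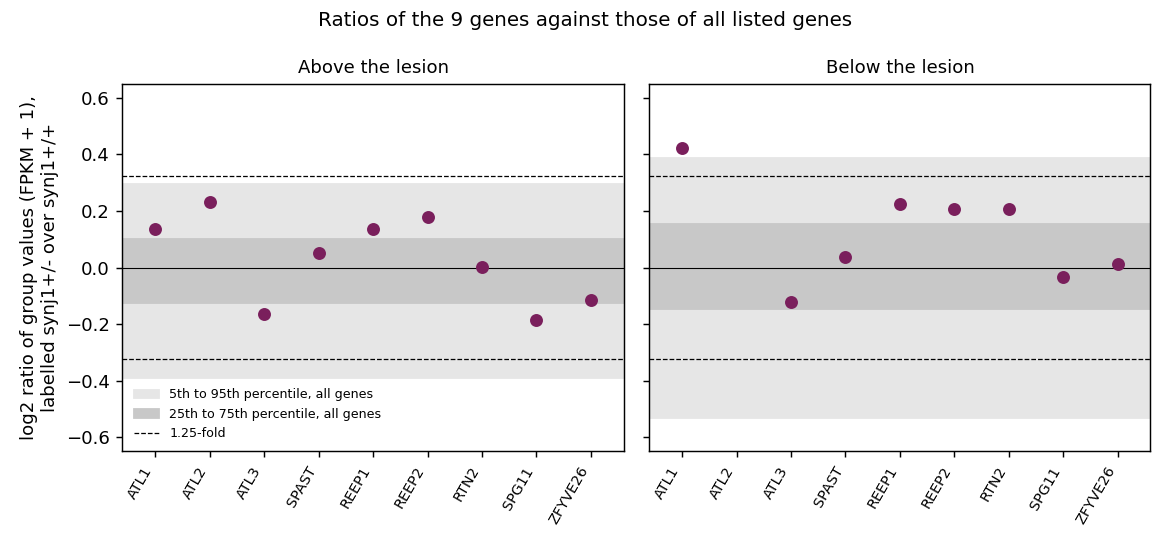
Log2 ratios of the 9 genes (points) above and below the lesion, cord labelled synj1+/- over cord labelled synj1+/+, on the FPKM plus 1 scale. The light grey band spans the 5th to the 95th and the dark band the 25th to the 75th percentile of all listed genes, and dashed lines mark the threshold. ATL1 below the lesion, at 0.42, is the only point outside both the bands and the lines.

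The order of the levels was nearly the same in every group. In cord labelled synj1+/+ above the lesion it ran from ATL2 through REEP1, REEP2, ZFYVE26, RTN2, SPAST, ATL3 and ATL1 to SPG11. REEP2 was 1.02 times ZFYVE26 there, and RTN2 was 1.03 times SPAST, and with no spread known, no neighbours in this order can be told apart. Below the lesion the order of the 8 genes was the same in that group. In cord labelled synj1+/-, SPAST and RTN2 stood in the reverse order above the lesion, and ATL1 stood above ATL3 at both sites, by 1.02 times above the lesion and 1.23 times below it. REEP1 and REEP2 were the highest of the 8 genes in all 4 groups, and SPG11 the lowest. The mean levels of the 9 genes lay between the 35.9th and the 81.7th percentile of all genes above the lesion, so none stood among the lowest genes of the table.

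Some reads could not be assigned to these genes with certainty. In the GENCODE annotation of GRCm38, the build named by the submitters, ATL1 lies on the plus strand of chromosome 12 from 69892614 to 69966417. Of the 9175 exonic bases of its annotated transcripts, 1336 are shared with exons of SAV1 and 548 with exons of MAP4K5, both on the opposite strand, and 86 with exons of the pseudogene Gm3086 on the same strand. Strand was not stated to be used in the counting. SAV1, a scaffold of the Hippo pathway, stood at 21.5 FPKM in cord labelled synj1+/+ and 17.6 in cord labelled synj1+/- below the lesion, and MAP4K5, a kinase, at 18.2 and 18.4. Their ratios there were 0.826 for SAV1 and 1.01 for MAP4K5. These totals do not show how shared reads were assigned, and their part in the values of ATL1 was not tested. SPG11, on the minus strand of chromosome 2 from 122053520 to 122118386, shares 1107 of 8042 exonic bases with EIF3J1. That gene stood at 10.6 and 10.4 FPKM above the lesion and 10.7 in both groups below it. The other members share no exonic base with another annotated gene. SPAST lies on chromosome 17 from 74338987 to 74391115, ATL2 on the same chromosome from 79848390 to 79896123, ATL3 on chromosome 19 from 7494040 to 7539674, REEP1 on chromosome 6 from 71707561 to 71810710, RTN2 on chromosome 7 from 19282624 to 19296160 and ZFYVE26 on chromosome 12 from 79232346 to 79296304.

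Further genes that shape the ER were compared as a list of 18, of which 17 were listed at each site. Above the lesion 9 were higher and 8 lower in cord labelled synj1+/-, with a median log2 ratio of 0.01. Below it 7 were higher and 10 lower, with a median of -0.01. Over all genes, 49% above the lesion and 52.8% below it had a ratio over 1. The genes of the list past the threshold, all lower, were 5.88% of it above the lesion and 11.8% below. Of all genes, 11.6% and 19.6% were past it in either direction, and 7.45% and 11.5% as lower. REEP4, which with REEP3 clears ER from chromosomes in mitosis, stood at 13.1 and 9.06 FPKM above the lesion, a ratio of 0.715, and at 12.8 and 8.12 below it, a ratio of 0.661. RRBP1, a ribosome-binding protein of sheet-like ER, stood at 359 and 278 below the lesion, a ratio of 0.774. REEP1 and REEP2 thus stood on the other side of 1 from REEP4 at both sites. The reticulons were among the most abundant genes of the list. RTN1, found mainly in neurons, stood at 1975 and 2148 above the lesion and 1792 and 2135 below it. RTN4, the gene of Nogo, a myelin protein that restrains axon growth, was listed above the lesion only, at 1430.1 and 1449.8. LNPK, a protein of ER tubule junctions, stood at 56.6 and 70.0 FPKM below the lesion, a ratio of 1.23 and the highest of the list there. RTN1, RTN4 and LNPK, like REEP3, REEP5 and REEP6, were chosen for mention after their values were seen.

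Among the other microtubule-severing enzymes and the ESCRT proteins that recruit spastin, 7 of 9 genes were listed above the lesion, where 2 were higher and 5 lower, and 6 below it, where 3 were higher. FIGN, the severing enzyme fidgetin, was the only gene past the threshold at either site, in opposite directions. That 1 gene was 14.3% of those listed above and 16.7% below the lesion, beside 11.6% and 19.6% of all genes. Ratios over 1 were found in 49% of all genes above the lesion and 52.8% below it. In cord labelled synj1+/+ the FPKM of FIGN was 5.54 above and 3.47 below the lesion, and in cord labelled synj1+/- it was 3.66 and 4.93. FIGN stood at a low level, and the number of reads behind its values is not known.

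A list of 53 other spastic paraplegia genes, 2 of which also stand in the lists above (ARL6IP1 and AP5Z1), set the 9 genes in a wider context. Above the lesion, 52 were listed, 21 higher and 31 lower in cord labelled synj1+/-, with a median log2 ratio of -0.04. Of them, 2 were past the threshold, both lower. DDHD1, a phospholipase of the mitochondrial surface, stood at 125 and 90.5 FPKM, a ratio of 0.728. ENTPD1 (CD39), which breaks down extracellular ATP and is abundant on microglia, stood at 47.0 and 36.6, a ratio of 0.783. Below the lesion, 42 were listed, 25 higher and 17 lower, with a median of 0.06. Of them, 3 were past the threshold. ALDH18A1, an enzyme of proline synthesis, stood at 13.7 and 17.6 FPKM, a ratio of 1.26. CYP7B1, an oxysterol hydroxylase, stood at 22.4 and 16.2, a ratio of 0.734, and ENTPD1 at 60.5 and 46.3, a ratio of 0.770. The shares past the threshold, 3.85% above and 7.14% below the lesion, were under those of all genes, 11.6% and 19.6%. A ratio over 1 was found in 49% of all genes above the lesion and 52.8% below it. The ratio of ATL1 below the lesion was higher than every ratio of this list at either site, but in size the log2 ratios of DDHD1 above the lesion, -0.46, and CYP7B1 below it, -0.45, lay further from 0 than that of ATL1, 0.42.

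**Figure D3:**
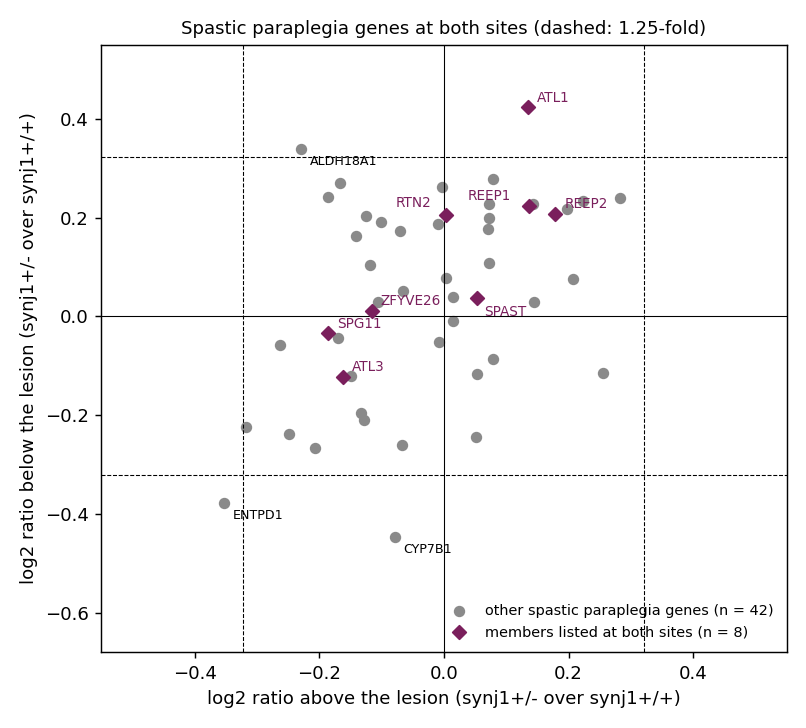
Log2 ratio above (x axis) against below (y axis) the lesion for the 8 members listed at both sites (diamonds) and the 42 other spastic paraplegia genes listed at both (circles), cord labelled synj1+/- over cord labelled synj1+/+. Dashed lines mark the threshold. ATL1 is the highest point on the y axis, CYP7B1 the lowest, and ENTPD1 is past the lines at both sites.

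Within that list, groups by function were formed after the values had been seen and are given as description only. The kinesin motors of axonal transport were represented below the lesion by KIF5A and KIF1A. KIF5A stood at 419 FPKM in cord labelled synj1+/+ and 508 in cord labelled synj1+/-, a ratio of 1.21. KIF1A stood at 1231 and 1441, a ratio of 1.17. Above the lesion their ratios were 1.06 and 1.05, and the 4 kinesin genes together had a median log2 ratio of 0.04. Of the 11 enzymes of lipid metabolism, 2 were higher and 9 lower above the lesion, with a median log2 ratio of -0.08. Below it 6 of 9 were higher, with a median of 0.17 and a range from -0.45 to 0.26. For comparison, 49% of all genes above the lesion and 52.8% below it had a ratio over 1. The 5 mitochondrial proteins ran from -0.23 to 0.21 above the lesion and from -0.24 to 0.34 below it. The adaptor complex AP-4, which carries the autophagy protein ATG9A out of the cell body, had a median of 0.05 above the lesion over 4 genes and 0.03 below it over 3. No group stood wholly on 1 side of the control at both sites.

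The genes most like ATL1 were sought by the distance between profiles over the 4 group values, on the log2 scale and centred for each gene. B9D2, a protein of the ciliary transition zone, was nearest at a distance of 0.0156, with log2 ratios of 0.13 above and 0.44 below the lesion. ZSCAN25, a zinc finger gene, and AMIGO1, a neuronal adhesion protein, followed at 0.0204 and 0.0211. Of 12024 genes, 141 lay within a distance of 0.1, none of them a member. Among the members, REEP1 was nearest to ATL1 at 0.152 and REEP2 followed at 0.157, with 4.40% and 4.87% of all genes nearer. ATL3 was farthest at 0.461, with 70.8% of genes nearer.

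Cell type markers differed between the same groups, and their part in the values above was not tested. In bulk tissue, fewer cells of a type and less RNA per cell cannot be told apart. Neuron markers had a median log2 ratio of 0.06 above the lesion, where 7 of 12 were higher and 0 were past the threshold. Below it the median was 0.18, and 9 of 10 were higher. Among all genes, 49% above the lesion and 52.8% below it had a ratio over 1. Past the threshold in either direction were 11.6% and 19.6% of all genes. The summed FPKM of neuron markers above the lesion was 12635 in cord labelled synj1+/- against 11293 in the control, or 1.12 times the control. Of that, SNAP25 made up 6247 and 5238, and RBFOX3 1780 and 1485. Below the lesion the sum was 11657 against 9348, of which SNAP25 made up 6928 and 5271. Past the threshold below the lesion were SNAP25, SYT1 at 331 and 480 FPKM, and SYP at 357 and 447, all proteins of synaptic vesicles or their release. Neurofilaments, the axonal scaffold, showed smaller ratios there, 1.12 for NEFH, 1.14 for NEFL and 1.15 for NEFM. Of the 10 neuron markers listed below the lesion, only SYT1, at 1.45, had a higher ratio than ATL1. SNAP25, at 1.31, and SYP were under ATL1. The ratios of REEP1, REEP2 and RTN2 lay under those of SYT1, SNAP25 and SYP and over those of all other neuron markers listed. Among these others were THY1 at 1.12, STMN2 at 1.09, TUBB3 at 1.08 and GAP43 at 0.990. The neurofilaments, THY1, STMN2, TUBB3 and GAP43 were chosen for mention after their values were seen. A difference between synaptic and axonal genes was not tested. The defining neuron genes MAP2 and ENO2 have no entry at either site, nor RBFOX3 below the lesion. Markers of cholinergic motor neurons had medians of -0.05 above and 0.18 below the lesion. CHAT, which makes acetylcholine, was past the threshold above the lesion at 9.87 and 7.54 FPKM, and ISL1 at 0.882 and 1.46, a level too low to read.

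Glial and connective tissue markers were mostly lower in cord labelled synj1+/-. Of 11 microglia and macrophage markers above the lesion, 7 were past the threshold and lower, and of 9 below it, 7. As lower, 7.45% of all genes above the lesion and 11.5% below it were past the threshold. LYZ2, lysozyme of macrophages, stood at 380 and 234 FPKM above the lesion and 1100.2 and 464 below it. C1QB had the next lowest ratio above the lesion, 0.666, and AIF1 below it, 0.527. The highest ratios were those of AIF1 and P2RY12 above the lesion, 1.03 and 0.952, and of CSF1R and TMEM119 below it, 0.827 and 0.803. All 6 fibroblast markers above the lesion and all 5 below it were past the threshold and lower. DCN, decorin, stood at 138 and 18.8 FPKM below the lesion, and the fibroblast sum was 0.125 times the control there. Above the lesion it was 0.681 times the control, but FN1, which is not listed below, made up 229 of 256 FPKM in cord labelled synj1+/+ and 158 of 175 in cord labelled synj1+/-. COL1A1, COL1A2, COL3A1 and LUM, of the same list, had ratios from 0.113 to 0.153 below the lesion. Above it COL3A1 was at 0.329, COL1A1 at 0.686, DCN at 0.711 and COL1A2 at 0.778, each at a few FPKM. Of 7 astrocyte markers, 6 were lower at each site, with medians of -0.26 and -0.18, and AQP4 and GFAP were past the threshold below the lesion at 0.759 and 0.763. Oligodendrocytes were represented by 4 of 8 markers, with medians of -0.15 and -0.03. Endothelial markers had medians of 0.10 and -0.13, with KDR at 1.46 above and CDH5 at 0.656 below the lesion. Of the Schwann cell markers, PMP22, a protein of peripheral myelin, was at 0.898 above and 0.866 below the lesion. Red cell genes were higher at both sites, with summed FPKM 4.56 times the control above and 1.31 times below. HBA-A1, an alpha globin, stood at 103 and 468 above the lesion, and ALAS2 had ratios of 3.62 and 1.57. At both sites, cord labelled synj1+/- thus had higher sums of neuron and red cell markers and lower sums of microglia, fibroblast and astrocyte markers. Above the lesion the higher neuron sum rested largely on SNAP25 and RBFOX3, and 5 of 12 neuron markers were lower.

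**Figure D4:**
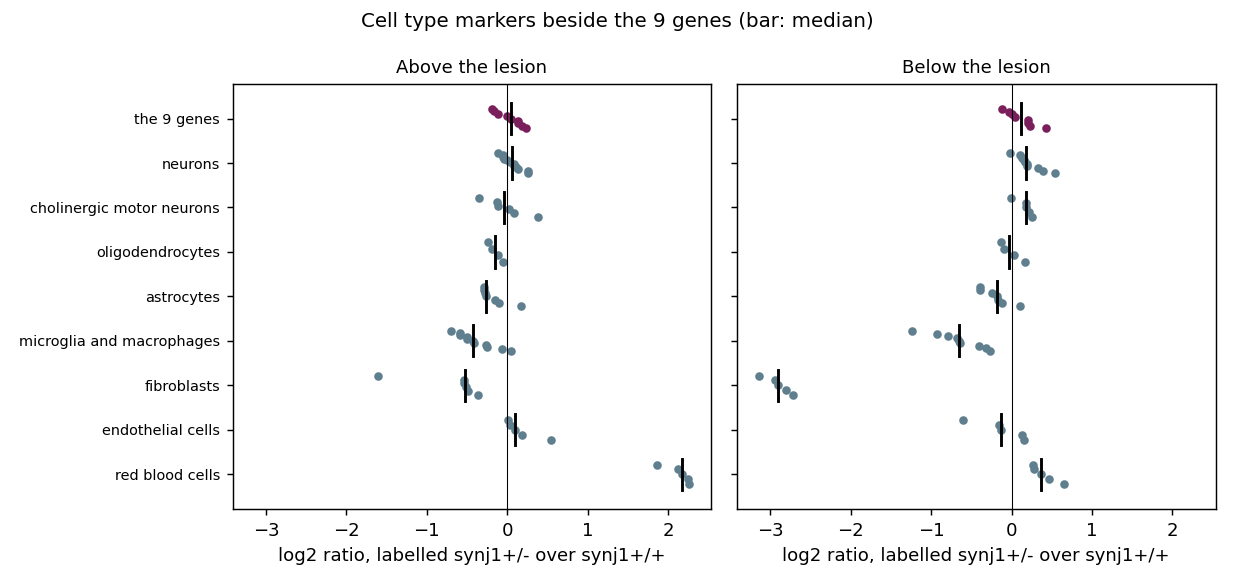
Log2 ratios of the 9 genes and of each cell type marker (points) above and below the lesion, cord labelled synj1+/- over cord labelled synj1+/+, with a bar at the median of each list. Schwann cell markers, with at most 2 listed, are not drawn. Below the lesion the neuron list (median 0.18) and the 8 members listed there (median 0.12) lie to the right of 0, and the fibroblast list lies near -2.91.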

How the data were processed

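The values are those that the authors deposited per gene and group, read as FPKM plus 1. The lowest is exactly 1, and 88.3% of values between 1 and 2 carry 6 decimals, against 5.05% from 2 to 9. The authors reduced the reads of each site to its smallest library, aligned them with STAR 2.5.4b to GRCm38.p6 and summarized them with Cuffdiff 1.3.0 and upper quartile normalization, which sets the absolute scale of FPKM here. No column holds a single library, so depth per library and spread could not be read, and no test was computed. The authors' fold changes, p-values and q-values, and a shorter list of them, were not used.

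Ratios, medians, percentiles and the distance to ATL1 were computed in Python 3.11.15 with numpy 2.4.6 and pandas 2.3.3. The calculation was checked on values with known answers. Positions came from GENCODE M21. Members and lists were chosen with earlier results of these data known. Named are all members, SYNJ1, the 3 genes nearest ATL1 and, per list, the genes past the threshold or, where over 5 passed, the 2 highest and 2 lowest. KIF1A, KIF5A, NEFL, NEFM, NEFH, GAP43, THY1, STMN2, TUBB3, RBFOX3, FN1, PMP22, RTN1, RTN4, LNPK, REEP3, REEP5 and REEP6 were added after their values were seen. HBA-A2, HBB-BS and HBB-BT met the rule but are given only in their sum, and some others are not reported here.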

Additional observations from a re-analysis of the deposited data

How the results depend on the processing

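Removing the added 1, or centring on the median of all genes, moved the log2 ratios of the members by at most 0.01; 1 of 17 signs changed on centring, that of ZFYVE26 below the lesion. Centring on the neuron markers moved them by up to 0.18 and changed 4 signs. ATL1 below the lesion then stood at 0.25, under the threshold, and counts for the other lists were not run on that scale. Without the added 1, centred on all genes, or without genes under 2 in either group, the counts past the threshold stayed, except that removing the 1 gave 3 in place of 2 other spastic paraplegia genes above the lesion. Raising the threshold to 1.5-fold left 0 members below the lesion, 0 other spastic paraplegia genes at either site and 0 other ER-shaping genes above and 1 below the lesion. Lowering it to 1.2-fold gave 4 other spastic paraplegia genes above and 6 below the lesion, and 4 other ER-shaping genes below. Leaving out a library was not run, since each value pools 3. No paired analysis was possible because the values are pooled and the library numbers of the groups differ.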
